A study of Drosophila melanogaster with 12 samples.

Results

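The vacuolar ATPase (V-ATPase) is the rotary proton pump that acidifies lysosomes, endosomes and secretory vesicles, and in some epithelia it also works at the plasma membrane. A peripheral sector in the cytosol, V1, breaks down ATP and turns a central stalk. The membrane sector, V0, carries a ring of proteolipid subunits that moves protons as it rotates. Flies, like other animals, encode several subunits by more than 1 gene, and many of the extra copies in Drosophila are known for use in a single tissue such as the testis. The Drosophila subunit genes were chosen as every gene whose symbol in the deposited count tables starts with Vha. This gave 33 of 15240 genes, of which 13 encode V1 subunits, 18 encode V0 subunits and 2 encode accessory proteins, for 15 kinds of protein in all. They lie on arms 2L (6 genes), 2R (8), 3L (5), 3R (12) and X (2).

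RNAseq was performed on dissected Drosophila melanogaster wings at 6 timepoints of metamorphosis, with 2 replicates at each and 12 libraries in all. The timepoints are wandering larvae of the last instar (L3) and 6, 18, 24, 36 and 44 h after puparium formation (APF), and the first is placed at -10 h APF by the series' design but named 0 h in the sample titles. All animals carried the genotype labelled w1118/y,w, hs-FLP; + ; +, with no treatment, and 40 wings were pooled for each stage, so a library is a pool and not an animal. The comparisons are therefore between stages of one genotype. The libraries held 1659208 to 6900002 reads on genes, and the Vha genes took 0.168 to 0.335% of them. Markers of the wing (vg, nub, ap, sd and rn) were read in all libraries. Their summed level, in CPM, the count divided by the scaled library size, was 1417 and 1136 in L3 wings, 829.8 and 883.3 in 6 h wings, 1799 and 1840 in 18 h wings, 1942 and 1711 in 24 h wings, 964.7 and 1064 in 36 h wings, and 708 and 712.1 in 44 h wings. This sum was thus lowest at 6 and 44 h, where most Vha genes were highest, and highest at 18 and 24 h, where most were lowest. The markers did not all follow the sum. At 18 h relative to 6 h, 3 of the 5 were higher past the test used below, vg had a log2 fold change of -0.02, and rn was lower. The level of rn was 81.58 and 67.29 CPM at 6 h and 41.27 and 26.59 at 18 h. The part of these wing markers in the results was not tested. The glue gene Sgs1 and the Malpighian tubule gene Uro had no count. All 6 salivary gland markers together summed to at most 3.78 CPM. The 4 Malpighian tubule markers summed to 1.332 and 1.26 CPM in L3 wings and 6.643 and 7.082 in 44 h wings. Of the 2 tubule markers tested between timepoints, 1 rose at 44 h relative to L3. The part of these markers in the results was not tested. Markers of other tissues differed between stages, and values of the hemocyte, fat body, muscle and neuron markers stand beside the comparisons. In such bulk samples, fewer cells of a type and less RNA per cell cannot be told apart.

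Levels are given as reads divided by exon length and library size (RPKM), scaled between libraries by edgeR's TMM factors, so that genes of different length can be set side by side. On this scale 17 of the 33 genes were commonly expressed, with a mean over the 12 libraries of at least 10. Their means lay between 20.49 for Vha100-1 and 227.8 for Vha16-1. A further 2 genes were low, with a mean between 1 and 10. The remaining 14 had a mean under 1. Each of the 15 kinds of protein had at least 1 gene in the first class, as the plot of mean levels by subunit shows.

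**Figure D1:**
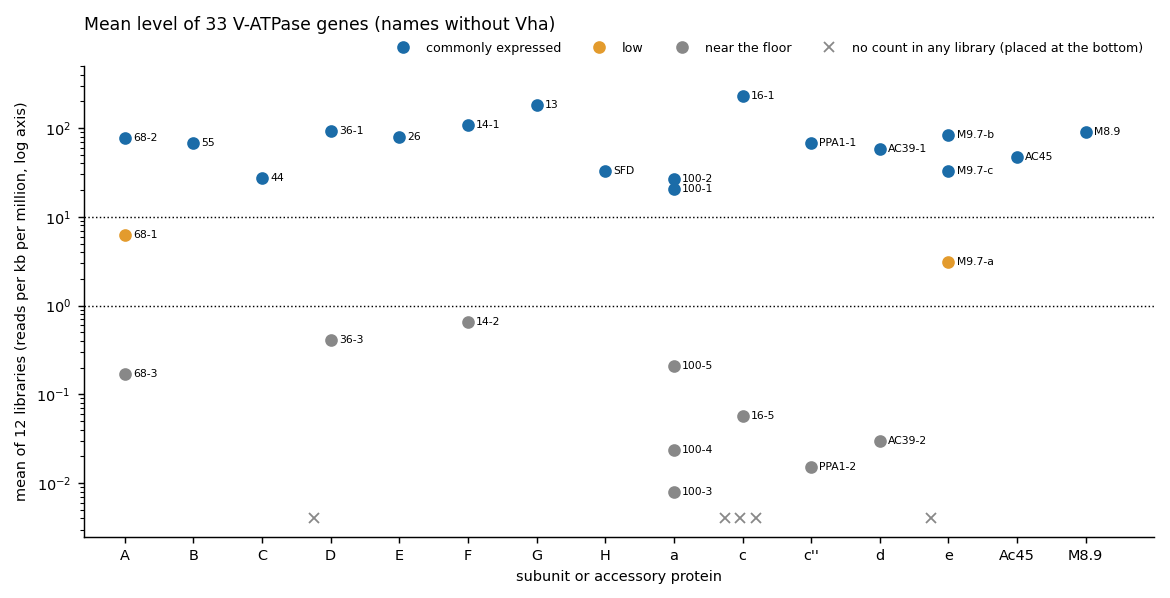
Mean level over 12 libraries (RPKM, log axis) of each of the 33 Vha genes, placed by the subunit or accessory protein it encodes. The dotted lines at 10 and 1 separate the 17 commonly expressed, 2 low and 14 remaining genes, and crosses mark the 5 genes with no count, which are placed at the bottom because a log axis has no zero.

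Most commonly expressed genes had a first high level at 6 h APF, lower levels at 18 and 24 h and a second, mostly higher level at 44 h. Vha100-1 was instead highest at 36 h, with means of 17.8 at 6 h, 42.8 at 36 h and 28.0 at 44 h. Vha14-1, with means of 108.6 at 24 h and 76.1 at L3, and VhaM9.7-b, with 79.8 and 52.9, were low at 18 h but not at 24 h. Vha36-1, with 82.0 and 59.2, and VhaM9.7-c, with 23.3 and 13.7, were among others with a 24 h mean above those of L3 and 18 h. The gene with the highest mean level was taken as the leading gene of each kind of protein, which gave 15 leading genes. The median leading gene stood at 37.5% of its own highest timepoint mean in L3 wings, 75.2% in 6 h wings, 33.6% in 18 h wings, 35.1% in 24 h wings, 51.6% in 36 h wings and 100% in 44 h wings. Of the 15, 14 were highest at 44 h, and Vha36-1 was highest at 6 h. The lowest mean was at 18 h for 7 of them, at 24 h for 6 and at L3 for 2. The ratio of the highest to the lowest timepoint mean was between 2.353 and 7.2.

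**Figure D2:**
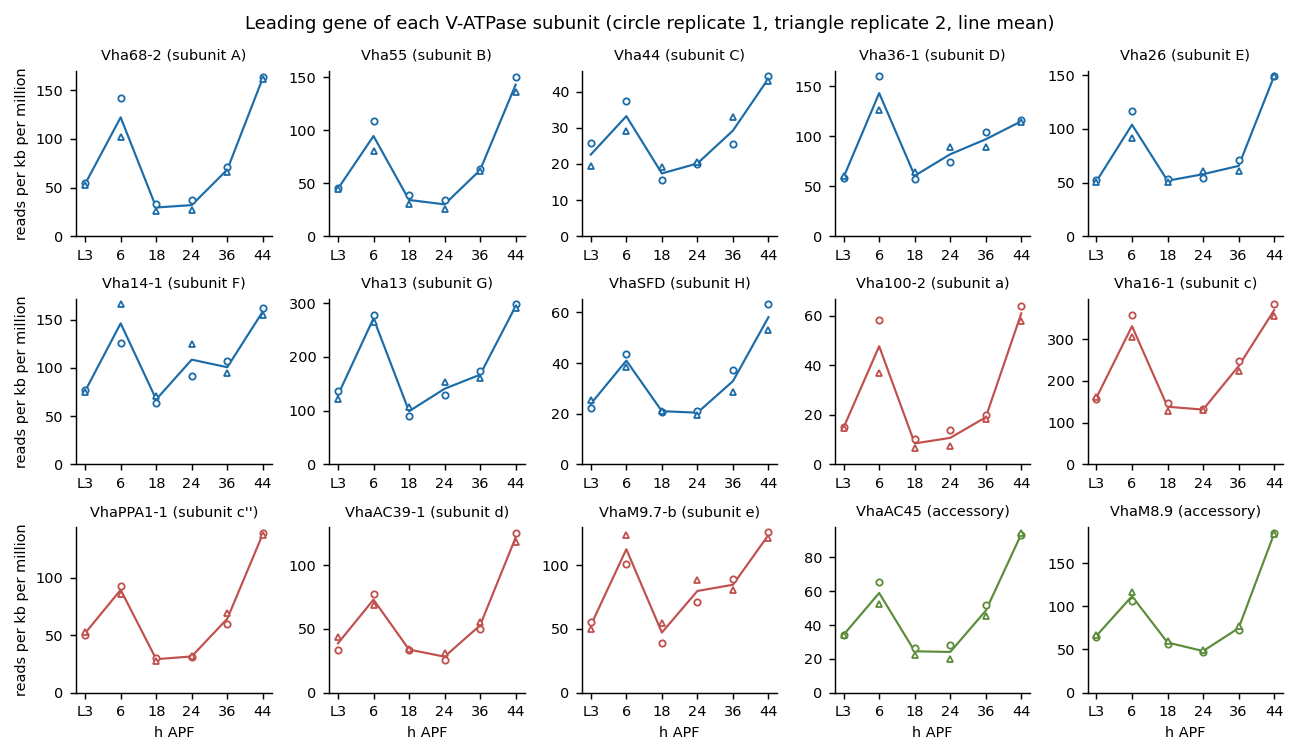
Level (RPKM, each axis starting at 0) of the leading gene of each subunit at L3 and 6 to 44 h APF, with timepoints evenly spaced. Circles and triangles are the 2 replicates and the line joins their means, with V1 genes in blue, V0 genes in red and accessory genes in green. The panels share a level at 6 h that is above those of L3 and 18 h, and 14 of the 15 end at their highest mean at 44 h.

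The catalytic head of V1 alternates subunits A and B, which bind and split ATP. Vha68-2, the leading gene for subunit A, had levels of 54.4 and 53.0 in L3 wings, 142 and 102 in 6 h wings, 33.6 and 25.5 in 18 h wings, 37.0 and 27.0 in 24 h wings, 70.6 and 66.1 in 36 h wings, and 163 and 162 in 44 h wings. Vha55, the single gene for subunit B, had levels of 45.3 and 44.4 in L3 wings, 109 and 80.02 in 6 h wings, 38.5 and 30.0 in 18 h wings, 34.6 and 25.6 in 24 h wings, 63.3 and 61.7 in 36 h wings, and 150.1 and 136 in 44 h wings. Both genes were lowest at 18 and 24 h, where their replicates overlapped between the 2 timepoints, and both 44 h libraries stood above every other library. The fall of Vha68-2 at 18 h was to 0.243 of the level at 6 h (log2 fold change -2.04, SE 0.24, adjusted p = 3.86e-05 with edgeR).

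Subunits D and F form the central stalk that turns inside the head. Vha36-1, for subunit D, had levels of 58.5 and 59.8 in L3 wings, 160.5 and 126 in 6 h wings, 57.2 and 63.9 in 18 h wings, 74.4 and 89.6 in 24 h wings, 105 and 89.5 in 36 h wings, and 116 and 114 in 44 h wings. Vha14-1, for subunit F, had levels of 77.6 and 74.6 in L3 wings, 126 and 167 in 6 h wings, 63.4 and 71.3 in 18 h wings, 91.9 and 125 in 24 h wings, 107 and 94.3 in 36 h wings, and 162 and 155 in 44 h wings. Both were above their 18 h levels in each library from 24 h onwards. Neither was past the test between 18 and 24 h, where the log2 fold changes were 0.43 for Vha36-1 (SE 0.20, adjusted p = 0.175 with edgeR) and 0.68 for Vha14-1 (SE 0.22, adjusted p = 0.0622). Vha36-1 was the only leading gene whose 6 h replicates both exceeded its 44 h replicates.

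Subunits E and G make the peripheral stalks that hold the head still. Vha13, for subunit G, had levels of 136 and 122 in L3 wings, 278 and 266 in 6 h wings, 90.4 and 107 in 18 h wings, 129 and 153 in 24 h wings, 173 and 161 in 36 h wings, and 298 and 291 in 44 h wings. Vha26, for subunit E, had levels of 52.2 and 50.3 in L3 wings, 116 and 91.3 in 6 h wings, 53.3 and 50.1 in 18 h wings, 54.5 and 61.0 in 24 h wings, 70.6 and 60.3 in 36 h wings, and 149 and 149 in 44 h wings. Vha13 was second in level only to the proteolipid gene. Vha26 stayed between 50.1 and 70.6 in all 8 libraries of L3, 18, 24 and 36 h, and rose at 44 h by 1.19 on the log2 scale relative to 36 h (SE 0.20, adjusted p = 0.000848 with edgeR).

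Subunits C and H join V1 to V0, and the pump is known to be switched off by the release of V1 with loss of subunit C. Vha44, for subunit C, had levels of 25.7 and 19.5 in L3 wings, 37.3 and 29.1 in 6 h wings, 15.7 and 19.1 in 18 h wings, 19.9 and 20.4 in 24 h wings, 25.4 and 33.05 in 36 h wings, and 44.4 and 42.9 in 44 h wings. VhaSFD, for subunit H, had levels of 22.4 and 25.4 in L3 wings, 43.7 and 38.3 in 6 h wings, 20.9 and 21.2 in 18 h wings, 21.2 and 19.6 in 24 h wings, 37.3 and 28.5 in 36 h wings, and 63.2 and 53.1 in 44 h wings. These were the lowest leading genes of V1. Vha44 had a log2 fold change of 0.55 at 6 h over L3 (SE 0.22, adjusted p = 0.0578), and it was the only commonly expressed gene that did not pass the test there. Hmgs, the gene of a mevalonate pathway enzyme, overlaps Vha44 on the opposite strand and had a mean of 35.47 CPM in L3 wings, 403.9 in 6 h wings, 14.62 in 18 h wings, 20.43 in 24 h wings, 454.8 in 36 h wings and 377.7 in 44 h wings. The strand setting of the counting is not given in the sources used here, so its part in the values of Vha44 was not tested.

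The V0 ring consists mainly of subunit c, the proteolipid that carries protons, with a copy of the related subunit c''. Vha16-1, for subunit c, had levels of 158 and 162 in L3 wings, 358 and 305 in 6 h wings, 148 and 129 in 18 h wings, 133 and 129 in 24 h wings, 247 and 224 in 36 h wings, and 384 and 355 in 44 h wings. VhaPPA1-1, for subunit c'', had levels of 50.5 and 53.1 in L3 wings, 93.2 and 86.0 in 6 h wings, 30.2 and 27.9 in 18 h wings, 31.3 and 31.7 in 24 h wings, 59.6 and 69.2 in 36 h wings, and 139 and 138 in 44 h wings. Vha16-1 had the highest mean of the 33 genes at each timepoint except 24 h, where that of Vha13 was higher. VhaAC39-1, for subunit d, which couples the ring to the central stalk, had levels of 33.8 and 43.6 in L3 wings, 77.6 and 68.5 in 6 h wings, 33.5 and 34.0 in 18 h wings, 25.7 and 30.7 in 24 h wings, 49.9 and 55.8 in 36 h wings, and 125 and 118 in 44 h wings. The 44 h libraries were above all others for VhaPPA1-1 and VhaAC39-1, and for Vha16-1 only the 6 h replicate at 358 exceeded 1 of them.

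Subunit a carries the channels through which protons reach the ring, and it was encoded by 2 commonly expressed genes with different profiles. Vha100-2 had levels of 15.1 and 14.8 in L3 wings, 58.5 and 36.9 in 6 h wings, 10.3 and 6.60 in 18 h wings, 13.99 and 7.44 in 24 h wings, 19.9 and 18.2 in 36 h wings, and 64.0 and 58.0 in 44 h wings. Vha100-1, whose product is known in Drosophila for its role in synaptic vesicles and neurons, had levels of 12.4 and 11.9 in L3 wings, 17.8 and 17.8 in 6 h wings, 8.82 and 7.999 in 18 h wings, 16.0 and 11.6 in 24 h wings, 45.4 and 40.2 in 36 h wings, and 27.2 and 28.7 in 44 h wings. Vha100-1 was the only commonly expressed gene with its highest mean at 36 h. Vha100-2 had the largest ratio of highest to lowest timepoint mean among the leading genes, 7.2.

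The ratio of Vha100-2 to Vha100-1 differed between timepoints. It was 1.211 and 1.243 in L3 wings, 3.278 and 2.077 in 6 h wings, 1.173 and 0.8253 in 18 h wings, 0.8735 and 0.6397 in 24 h wings, 0.4389 and 0.4525 in 36 h wings, and 2.353 and 2.018 in 44 h wings. Vha100-2 thus held 70.2 and 66.9% of the level of subunit a genes at 44 h, against 30.5 and 29.9% at 36 h. Replicates of a timepoint were closer in this ratio than libraries paired at random, in an exact permutation test over all 10395 pairings of the 12 libraries (p = 0.00125, 0.00375 adjusted over the 3 pairs of paralogues tested). The pairs were set up after the values had been seen. Between 36 and 44 h Vha100-1 fell by 0.61 on the log2 scale (SE 0.19, adjusted p = 0.0317 with edgeR) and Vha100-2 rose by 1.68 (SE 0.31, adjusted p = 0.0017). The fall of Vha100-1 had an adjusted p of 0.052 to 0.162 when any 1 of the L3, 36 h or 44 h libraries was left out. At 36 h relative to 24 h Vha100-1 rose 3.05-fold (log2 fold change 1.61, SE 0.20, adjusted p = 8.04e-05). The summed level of 5 neuron markers (elav, nSyb, brp, Syt1 and para) was 48.2 and 32.1 CPM in L3 wings, 35.8 and 37.7 in 6 h wings, 89.7 and 83.4 in 18 h wings, 127 and 129.5 in 24 h wings, 148 and 164 in 36 h wings, and 242 and 211 in 44 h wings. The marker sum was highest at 44 h, where Vha100-1 was below its 36 h level, but the markers differed. At 44 h over 36 h only para was past the test (log2 fold change 1.86). The others had 1.00 (Syt1), 0.64 (nSyb), -0.06 (elav) and -0.15 (brp). The part of the neuron markers in the level of Vha100-1 was not tested. Alg13 overlaps Vha100-1 on the opposite strand, at timepoint means of 4.906 to 11.98 CPM, the highest at 24 h. Vti1b, listed as CG44009, overlaps Vha100-2 on the opposite strand and lay between 12.56 and 17.52 CPM.

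**Figure D3:**
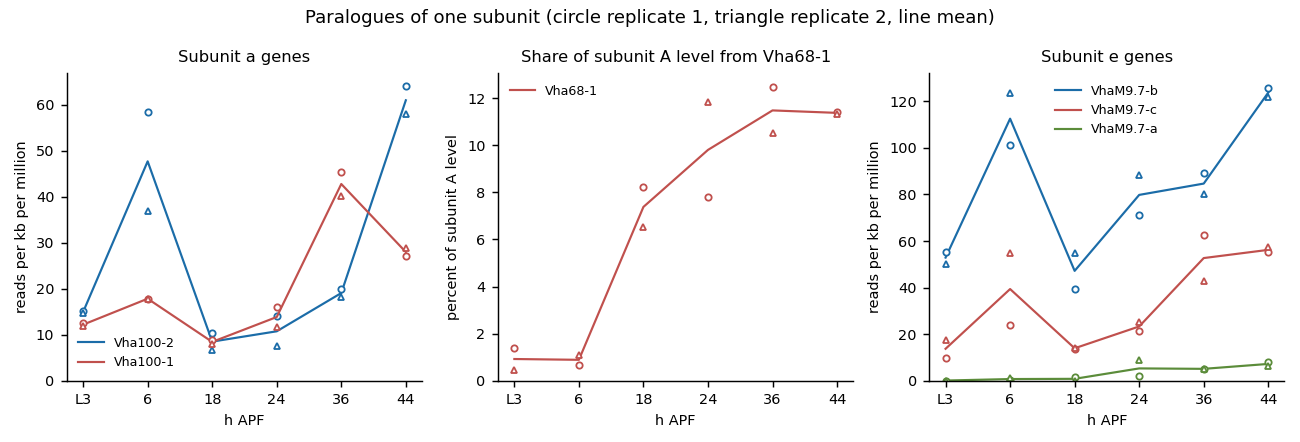
Left, levels of the 2 commonly expressed genes for subunit a (RPKM). Middle, the share of the level of subunit A genes that came from Vha68-1 (percent). Right, levels of the 3 expressed genes for subunit e. Circles and triangles are the 2 replicates, lines join their means and timepoints are evenly spaced. Vha100-1 peaks at 36 h and Vha100-2 at 6 and 44 h, and Vha68-1 takes 0.441 to 1.39% of subunit A at L3 and 6 h and 6.53 to 12.5% from 18 h on.

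Subunit e is a small membrane protein of V0, and 3 of its 4 genes were read. VhaM9.7-b, the leading gene, had levels of 55.5 and 50.3 in L3 wings, 101 and 124 in 6 h wings, 39.3 and 55.0 in 18 h wings, 71.2 and 88.5 in 24 h wings, 89.0 and 80.3 in 36 h wings, and 126 and 122 in 44 h wings. VhaM9.7-c had levels of 9.86 and 17.5 in L3 wings, 23.8 and 54.9 in 6 h wings, 13.6 and 14.2 in 18 h wings, 21.3 and 25.3 in 24 h wings, 62.5 and 42.9 in 36 h wings, and 55.1 and 57.3 in 44 h wings. Its replicates differed more than 2-fold at 6 h, and they overlapped between 36 and 44 h. The ratio of VhaM9.7-c to VhaM9.7-b had geometric means of 0.2484 in L3 wings, 0.3225 in 6 h wings, 0.2982 in 18 h wings, 0.292 in 24 h wings, 0.6118 in 36 h wings and 0.4538 in 44 h wings, and in the same exact permutation test replicates were not closer than random pairs at the 0.05 level (p = 0.136, 0.136 adjusted). Teh2 overlaps VhaM9.7-c on the same strand, with no count in L3 wings, 0.1146 CPM in 6 h wings, 1.287 in 18 h wings, 1.731 in 24 h wings, 13.49 in 36 h wings and 18.16 in 44 h wings, and its part in the values of VhaM9.7-c was not tested.

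VhaM9.7-a, the low gene for subunit e, had levels of 0 and 0 in L3 wings, 0.323 and 0.957 in 6 h wings, 1.47 and 0 in 18 h wings, 1.81 and 8.62 in 24 h wings, 4.97 and 5.08 in 36 h wings, and 8.02 and 6.27 in 44 h wings. These levels rest on 0 to 24 counts per library. At 44 h it had 5.694 and 4.452 CPM, which is at least 5.37-fold higher than at L3, taking the mean at 44 h over the larger floor of 3 counts at L3 (0.945 CPM), or 4.71-fold with the lower replicate. It passed the test between 44 h and L3 (adjusted p = 0.0017 with edgeR) and in no other pair of timepoints compared. VhaM9.7-a entered the tests only through libraries of 24 h or later, where it was high. The call at 44 h over L3 is therefore not independent of the rule for entry.

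Vha68-1, the low gene for subunit A, rose at 18 h, where the commonly expressed genes fell. It had levels of 0.769 and 0.235 in L3 wings, 0.942 and 1.14 in 6 h wings, 3.02 and 1.78 in 18 h wings, 3.13 and 3.62 in 24 h wings, 10.1 and 7.78 in 36 h wings, and 21.1 and 20.7 in 44 h wings, from 2 to 274 counts per library. The timepoint means were in the order of the time course, and the replicates of neighbouring timepoints did not overlap. At 18 h over 6 h it rose by 1.28 on the log2 scale (SE 0.39, adjusted p = 0.0205 with edgeR), beside falls of all 17 commonly expressed genes. This call was lost with only the 4 libraries of these timepoints (log2 fold change 1.24, adjusted p = 0.103), without replicate 1 of 18 h (log2 fold change 0.78, adjusted p = 0.239) and without replicate 1 of 6 h (1.14, adjusted p = 0.101). The neuron marker sum given above was also higher in both libraries of each timepoint from 18 h on than in any library of L3 or 6 h. At 18 h over 6 h, 3 of the 5 neuron markers were past the test as higher and 0 as lower. Their part in the level of Vha68-1 was not tested. At 44 h over L3 Vha68-1 rose 34.5-fold (log2 fold change 5.11, SE 0.36, adjusted p = 3.03e-07 with edgeR). It entered the tests only through libraries of 18 h or later, where it was higher. Its calls at 18 h over 6 h and at 44 h over L3 are therefore not independent of the rule for entry. The ratio of Vha68-1 to Vha68-2 had geometric means of 0.007923 in L3 wings, 0.008618 in 6 h wings, 0.07926 in 18 h wings, 0.1065 in 24 h wings, 0.1298 in 36 h wings and 0.1287 in 44 h wings. Replicates were closer in it than random pairs (exact permutation test, p = 0.017, 0.0255 adjusted). Vha68-2 kept 87.1 to 99.3% of the level of subunit A genes in all libraries.

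Both accessory genes followed the leading subunits. VhaAC45 encodes the fly counterpart of the mammalian accessory protein Ac45. It had levels of 34.2 and 34.3 in L3 wings, 65.6 and 52.3 in 6 h wings, 26.3 and 22.5 in 18 h wings, 28.3 and 19.8 in 24 h wings, 51.6 and 45.4 in 36 h wings, and 93.4 and 94.4 in 44 h wings. VhaM8.9, named ATP6AP2 in the current annotation and known from mammals as the prorenin receptor, had levels of 64.9 and 66.9 in L3 wings, 107 and 117 in 6 h wings, 56.7 and 59.5 in 18 h wings, 46.7 and 49.7 in 24 h wings, 72.3 and 77.1 in 36 h wings, and 185 and 184 in 44 h wings. In both, the 44 h libraries were above all others.

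The 14 members with a mean level under 1 were paralogues of subunits that had a commonly expressed gene. No count was found for Vha16-2, Vha16-3, Vha16-4, Vha36-2 and VhaM9.7-d, which allows at most 3 counts, or 0.363 to 1.53 CPM depending on the library. Vha16-5, VhaAC39-2, VhaPPA1-2, Vha100-3 and Vha100-4 had at most 3 counts in every library, and Vha68-3 had at most 4. Vha14-2 had a count in all 12 libraries, with a mean level of 0.6522 and at most 15 counts. The leading genes for subunits c, c'', d, D and F thus held at least 97.5% of the level of their subunit in each library. Vha36-3 had 19 counts in replicate 2 of 44 h and 2 in replicate 1, and Vha100-5 had 26 counts in replicate 2 of 36 h and none elsewhere. These 2 genes entered the tests only through a single library and passed none. Of the 14, 5 overlap a gene on the opposite strand. Testis markers (bam, can, dj, ProtA and topi), set here because several Vha paralogues are known from that organ, summed to 0 to 1.898 CPM.

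To ask which changes between timepoints exceeded the spread between replicates, 8469 genes were tested by the quasi-likelihood method of edgeR in a fit to the 12 libraries together, and 21 Vha genes entered. A gene was tested if any library had it above 2 log2 CPM. A gene passed with a Benjamini-Hochberg adjusted p under 0.05. Over the 6 timepoints together 19 of the 21 changed, beside 83.5% of all genes tested, and the 2 that did not were Vha36-3 and Vha100-5. The replicates are separate pools at most, and nothing in the labels says more about their independence, so the p-values measure only the spread between these libraries.

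At 6 h APF relative to L3, 16 Vha genes rose and none fell, 9 of the 16 by at least 2-fold. Of all genes tested, 23.4% rose (18.1% by at least 2-fold) and 22% fell. The median log2 fold change of the 15 leading genes was 1.02, or 2.026-fold, beside 0.01 over all genes. Among members past the test the largest rises were those of Vha100-2, which rose 3.20-fold (log2 fold change 1.68, SE 0.31, adjusted p = 0.000997), and VhaM9.7-c, which rose 2.97-fold (1.57, SE 0.38, adjusted p = 0.00549). The rise of VhaM9.7-c had an adjusted p of 0.0835 without replicate 1 of L3, and those of VhaAC45, VhaSFD and Vha100-1 were also lost without that library (adjusted p = 0.0649, 0.0746 and 0.13). Without replicate 2 of L3 those of VhaAC45 (adjusted p = 0.0594) and Vha100-1 (0.158) were lost, and that of Vha100-1 was also lost without any 1 library of 6, 18 or 44 h (0.0505 to 0.0764). All 17 commonly expressed genes had both 6 h libraries above both L3 libraries, beside 35.7% of all genes. Fat body markers (Lsp1alpha, Lsp1beta, Lsp1gamma, Lsp2, Fbp1 and Fbp2) summed to 148.3 and 668.5 CPM at 6 h, against 6.057 and 5.984 CPM at L3, with all 6 past the test. Hemocyte markers summed to 103.4 and 112.5 CPM at 6 h, against 61.29 and 60.79 CPM at L3. Of the 5 hemocyte markers tested, 2 were past the test as higher and 2 as lower. The part of these tissues in the rise was not tested. With library size alone as the scale 5 members rose, with a median of 0.44 for the leading genes. With unassigned reads in the library size 1 rose, and with limma on log2(RPKM + 1) none did.

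At 18 h relative to 6 h, 17 Vha genes fell, 14 of them by at least 2-fold, and Vha68-1 rose. Of all genes, 44.6% passed, 22.8% with a fall (17.8% by at least 2-fold) and 21.7% with a rise. The leading genes had a median log2 fold change of -1.26, beside 0.00 over all genes. Vha100-2 fell the most, to 0.180 of its level at 6 h (log2 fold change -2.48, SE 0.32, adjusted p = 7.96e-05), followed by Vha68-2. The fall of VhaM9.7-c was lost without replicate 2 of 6 h (log2 fold change -0.78, adjusted p = 0.0673) or replicate 1 of 18 h (-1.45, adjusted p = 0.0566), and that of Vha44 without that 18 h library (-0.80, adjusted p = 0.0538). For all 17 commonly expressed genes both 18 h libraries lay under both 6 h libraries, beside 33.6% of all genes. Since this comparison and the one with L3 share the 6 h libraries, the rise and the fall are not independent of each other. Scaled by library size alone, 14 members fell, and with unassigned reads or with limma 2 did, with medians of -0.53 and -0.48 for the leading genes. The fat body sum was 159.5 and 96.84 CPM at 18 h, and the hemocyte sum was 47.15 and 37.22 CPM, with 4 of 5 hemocyte markers tested past the test as lower. Their part in the fall was not tested.

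**Figure D4:**
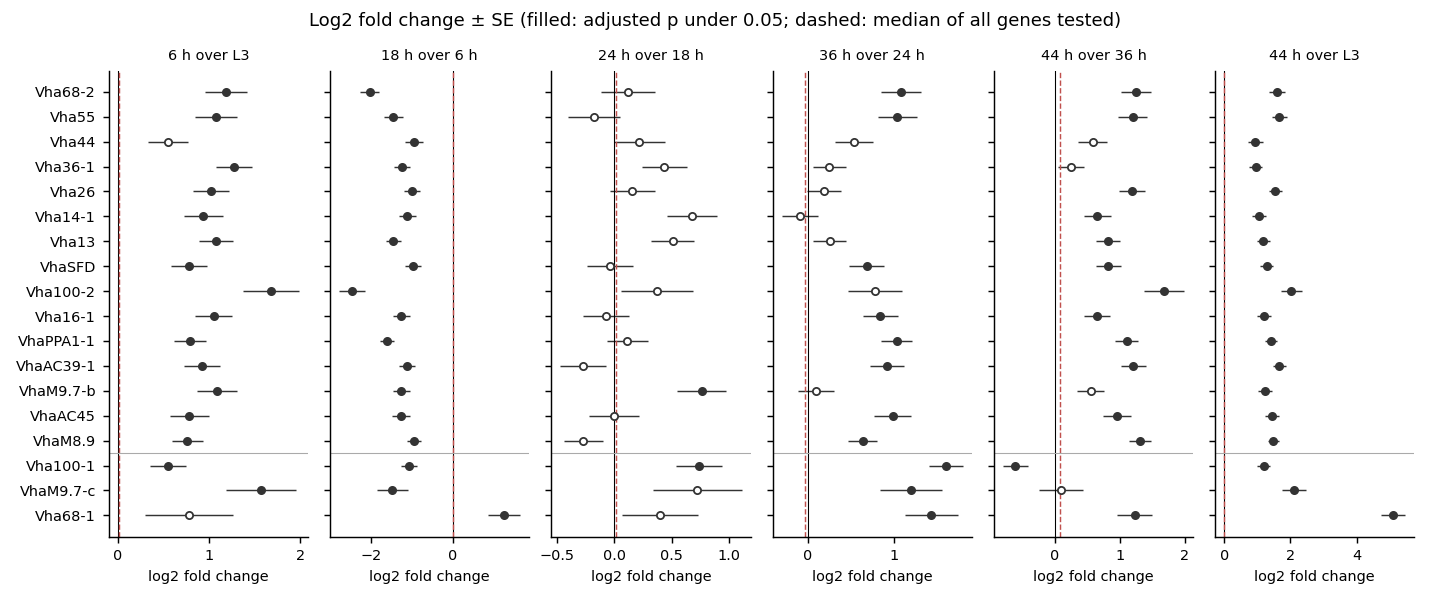
Log2 fold change with its SE (edgeR) of the 15 leading genes, above the grey line, and of Vha100-1, VhaM9.7-c and Vha68-1, below it, in 6 comparisons of a later with an earlier timepoint. Filled points have an adjusted p under 0.05, the dashed line is the median over all 8469 genes tested, and each panel has its own scale. At 18 h over 6 h all points except Vha68-1 lie below 0, and at 44 h over L3 all lie above it.

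At 24 h relative to 18 h, 2 of the 21 Vha genes tested (9.52%) passed the test, which is close to the share of all genes, 12.4%. Vha100-1 rose by 0.73 (SE 0.20, adjusted p = 0.0328) and VhaM9.7-b by 0.76 (SE 0.22, adjusted p = 0.0406) on the log2 scale, and 4.64% of all genes rose and 7.76% fell. With only the 4 libraries of these timepoints neither passed (adjusted p = 0.0679 and 0.0591), and the count of members past the test was 0 without either L3 library, either 44 h library, replicate 1 of 18 h or replicate 1 of 24 h. The median of the leading genes was 0.12, with 9 above and 6 below 0. The largest values among genes that did not pass, other than the low VhaM9.7-a, were those of VhaM9.7-c (0.72, SE 0.38) and Vha14-1.

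At 36 h relative to 24 h, 11 Vha genes rose, 6 by at least 2-fold, and none fell. Of all genes, 19.3% rose (15.3% by at least 2-fold) and 16.7% fell. The largest rises were those of Vha100-1 and Vha68-1. Vha68-1 rose 2.70-fold (log2 fold change 1.43, SE 0.31, adjusted p = 0.00383). The genes that rose included those for subunits A, B, H, c, c'' and d and both accessory genes. The leading genes for subunits D, E, F, G and e did not pass, at log2 fold changes of 0.25 for Vha36-1, 0.18 for Vha26, -0.09 for Vha14-1, 0.25 for Vha13 and 0.09 for VhaM9.7-b. Vha44 and Vha100-2 missed the threshold with larger values, 0.54 (adjusted p = 0.0771) and 0.78 (adjusted p = 0.0726). The median of the leading genes was 0.68, beside -0.04 over all genes. Scaled to all lines of the count tables, reads not assigned to a gene included, this median was -0.13, with the median over all genes at -0.88, so the rise is one relative to other genes. Of the 11 rises, 6 were kept with library size alone. None was kept with unassigned reads, where 1 other member passed, and with limma none rose and 1 member fell. Muscle markers summed to 158 and 272.9 CPM at 36 h, against 41.73 and 51.5 CPM at 24 h, with 5 of 7 past the test as higher. Neuron markers summed to 148.3 and 164 CPM at 36 h, against 126.6 and 129.5 CPM at 24 h, with 3 of 5 higher, and the part of either tissue in the rises was not tested. Leaving out 1 library of 24 or 36 h ended the calls of VhaM9.7-c (adjusted p up to 0.147) and VhaSFD (up to 0.136), each for 3 of the 4 libraries, that of VhaM8.9 for 2 (up to 0.0721) and that of Vha68-1 without replicate 1 of 24 h (0.0511).

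At 44 h relative to 36 h, 13 Vha genes rose, 8 by at least 2-fold, and Vha100-1 alone fell. Of all genes, 14.9% rose (10.5% by at least 2-fold) and 13% fell. The median of the leading genes was 0.95, beside 0.08 over all genes. After Vha100-2, the largest rise was that of VhaM8.9, 2.47-fold (log2 fold change 1.30, SE 0.17, adjusted p = 0.000143). Vha36-1, Vha44, VhaM9.7-b and VhaM9.7-c did not pass, at 0.25, 0.58, 0.55 and 0.10. Without replicate 2 of 36 h, 8 members passed in place of 14, and the calls lost included those of Vha14-1 (adjusted p = 0.178), Vha16-1 (0.144), VhaSFD (0.0803), Vha68-1 (0.0656) and VhaAC45 (0.0508). Those of Vha14-1 and Vha16-1 were also lost without any 1 other library of L3, 36 or 44 h (0.0535 to 0.157), that of Vha14-1 without either 18 h library (0.0512 and 0.0513), and that of VhaSFD without replicate 1 of 44 h (0.0831). Muscle markers (Mhc, Mlc2, up, wupA, Act57B, Act88F and Prm) summed to 567.8 and 2208 CPM at 44 h, against 158 and 272.9 CPM at 36 h. Of the 7, 6 were past the test as higher, and their part in the rises was not tested.

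Over the whole course, at 44 h relative to L3, 19 of the 21 genes tested rose, 17 of them by at least 2-fold, and none fell. Of all genes, 62.8% passed, 32.6% with a rise (26.9% by at least 2-fold) and 30.2% with a fall. The median of the leading genes was 1.42, or 2.671-fold, with a range from 0.95 to 2.03, beside 0.00 over all genes. All 17 commonly expressed genes had both 44 h libraries above both L3 libraries, beside 43.8% of all genes. With library size alone as the scale, the median over all genes was -0.84 and that of the leading genes 0.55, with 15 of 15 above 0 and 11 members past the test. With unassigned reads or with limma 8 members rose. At 44 h the muscle, neuron and fat body marker sums were all above those at L3 (muscle 29.92 and 28.66 CPM and fat body 6.057 and 5.984 CPM at L3), and their part in the rise was not tested.

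The likeness of each profile to the median leading gene was described by Pearson's r over the 6 timepoint means. It lay between 0.80 and 1.00 for the 15 leading genes and was 0.83 for VhaM9.7-c, 0.67 for Vha100-1 and 0.49 for Vha68-1. The points share their libraries and scaling, and each leading gene was compared with the median of the other leading genes. VhaSFD (1.00), VhaAC45 and Vha55 (0.99 each) were the most alike, and among the leading genes Vha36-1 (0.80), Vha14-1 (0.83) and VhaM9.7-b (0.84) the least. These last 3 also had mean levels at 24 h of at least 57.3% of their maximum, against 17.57% for Vha100-2 and 19.69% for Vha68-2.

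A list of 10 genes for assembly and regulation of the pump was set beside the subunits, and 9 were tested. It held Rbcn-3A and Rbcn-3B, whose products help assemble V1 with V0, Mitf, the transcription factor known in flies to act on Vha genes, and genes of the Rag and Ragulator complexes, which sense amino acids at the lysosome. At 6 h relative to L3, 4 rose and 1 fell, beside 23.4% and 22% of all genes, with a median log2 fold change of 0.64. Scaled by library size alone, 1 rose and 2 fell (median 0.06), and with unassigned reads none rose and 1 fell (0.21). The gene with the largest change was CG31030, which the current annotation names VhaAC45RP as a relative of VhaAC45, although its symbol in the files does not start with Vha. It had 3.028 and 1.89 CPM in L3 wings, 6.417 and 8.836 in 6 h wings, 8.62 and 7.836 in 18 h wings, 7.599 and 8.158 in 24 h wings, 2.059 and 2.498 in 36 h wings, and 43.89 and 42.09 in 44 h wings. It was thus highest at 44 h in both replicates and rose there by 4.22 on the log2 scale relative to 36 h. Rbcn-3B had a profile with the first rise of the subunits, at 33.69 and 28.21 CPM at 6 h, against 18.65 and 12.6 CPM at L3 (log2 fold change 0.95). Mitf rose at 6 h by 0.66 and had a log2 fold change of 0.03 at 44 h over L3, which did not pass. CG14184, the Ragulator gene Lamtor1, went the other way, with 18.56 and 18.01 CPM at 6 h against 32.34 and 32.76 CPM at L3 (log2 fold change -0.83), and 17.08 and 19.22 CPM at 44 h. Over the 5 consecutive comparisons the list had 8 rises and 5 falls past the test. In each of these comparisons 4.64 to 23.4% of all genes rose and 7.76 to 22.8% fell. CG5189 had no count.

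Of 8 exchanger and chloride transporter genes, which use or balance proton gradients, 6 were tested, and at 44 h relative to L3 4 rose and 1 fell, beside 32.6% and 30.2% of all genes, with a median of 0.78. The counts were 2 and 1 with library size alone, and the median was -0.07. ClC-c rose by 1.56, at 140.2 and 114.9 CPM at 44 h against 36.82 and 50.08 CPM at L3. ClC-b fell by 1.02, at 26.57 and 24.89 CPM against 47.24 and 57.33 CPM. Nhe2, a sodium and proton exchanger, was highest at 36 h, at 46.19 and 49.41 CPM, and rose by 2.66 over 24 h. Of 16 lysosome and autophagy genes 14 were tested, and 6 rose and 2 fell at 44 h relative to L3, beside the same shares of all genes, with a median of 0.67. With library size alone 3 rose and 4 fell, with a median of -0.19, and with unassigned reads 2 rose and 2 fell. The lysosomal channel gene trpml had no count. Cp1, a cysteine protease of the lysosome, rose by 2.22, at 830.9 and 794.4 CPM at 44 h against 168.7 and 180.8 CPM at L3. Npc1a, which exports sterol from the lysosome, rose by 2.33, at 339.1 and 282.5 CPM against 65.53 and 57.33 CPM. At 6 h relative to L3, 6 of the 14 rose and cathD fell, beside 23.4% and 22% of all genes. The median there was 0.41, and it was -0.17 with library size alone and -0.05 with unassigned reads. The autophagy kinase gene Atg1 (1.29) and the lysosomal transporter gene spin (1.44) rose there and fell at 18 h relative to 6 h by 1.49 and 2.06. CG17119, the cystine transporter gene Ctns in the current annotation, had 123.3 and 101.6 CPM at 36 h and no more than 5.667 CPM in any library of another timepoint.

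The mitochondrial ATP synthase, which runs the related rotary mechanism in the opposite direction to make ATP, served as a second rotary enzyme for comparison, with 13 genes in the list and all tested. With TMM scaling none rose in any comparison. At 44 h relative to L3, 12 of the 13 fell, beside 30.2% of all genes, with a median log2 fold change of -1.05, whereas the leading Vha genes had a median of 1.42. The largest falls were those of CG1746 (ATPsynC), at 345.7 and 672.6 CPM at 44 h against 1359 and 1235 CPM at L3 (-1.35), and blw, at 187.9 and 357.2 CPM against 684.6 and 632.5 CPM (-1.27). At 6 h relative to L3 no ATP synthase gene passed, with a median of -0.31, beside 1.02 for the leading Vha genes. There 8 of the 13 fell with library size alone (median -0.89), and with unassigned reads 1 did. The median at 44 h over L3 was -0.94, -1.91 and -1.60 with the 3 other scalings, so its direction held under each. At 18 h over 6 h, 3 of the 13 genes fell, which is close to the share of all genes, 22.8%. The median there, -0.08, changed sign with library size alone (0.40, with 4 genes past the test as higher) and with unassigned reads included (0.63, with 2 higher). The 2 lists were not tested against each other.

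**Figure D5:**
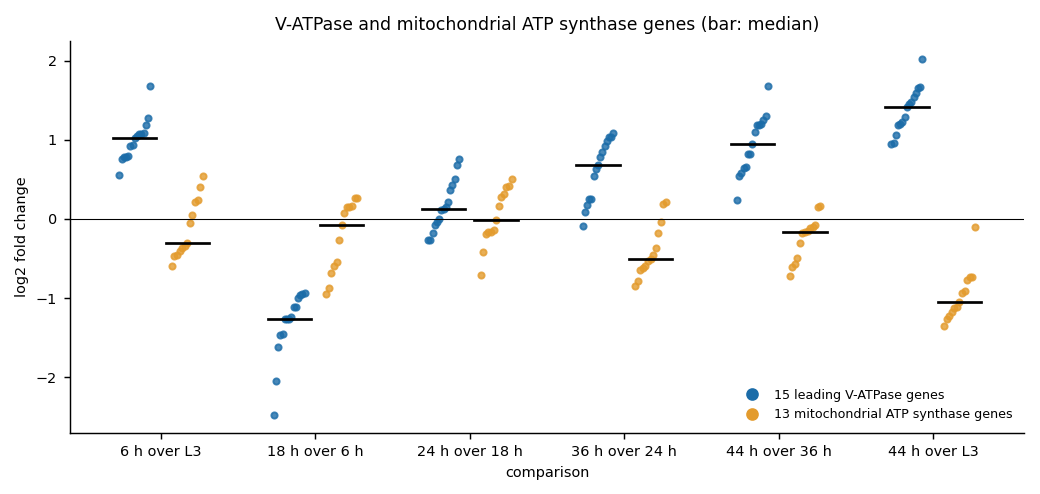
Log2 fold changes (edgeR) of the 15 leading Vha genes (blue, left in each pair) and of 13 mitochondrial ATP synthase genes (orange, right) in 6 comparisons of a later with an earlier timepoint. Each point is a gene, in order of its value, and bars are medians. At 44 h over L3 the medians are 1.42 and -1.05 and the 2 sets of genes do not overlap.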

How the data were processed

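The authors aligned stranded mRNA reads to dm3 with TopHat2 2.1.0 and counted reads on genes with HTSeq 0.6.1. The deposited counts are raw. RPKM values, computed by the authors in edgeR, accompany them, and 2 of those columns fit no sample and were set aside. Lines that name no gene held 44 to 75.2% of each library and were dropped. Reads without a unique alignment made up most of these, at 38 to 69.5% of each library. Their part in the levels and shares of paralogues was not tested. The gene lengths implied by the deposited RPKM values belonged to other genes (Spearman correlation 0.014 with annotated lengths over 9817 genes, which are not independent replicates). The planned length was therefore replaced by the exon-union length of the BDGP6 annotation, in which all 33 symbols or their identifiers were found. Positions are left out, as the build differs from dm3. No sequence is shown.

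Counts were analysed with edgeR 4.0.16 in R 4.3.3 (quasi-likelihood test, TMM, timepoint as the only term, 8469 genes, prior count 2 for log2 CPM). A called gene has an adjusted p-value under 0.05. The fit was tested on simulated counts. A floor of 3 counts was 0.363 to 1.53 CPM and covers counting error alone. Members and lists were chosen with earlier results of these data known. Every member is accounted for. Values in every library are given for the leading genes and others that changed over time, and for each comparison the 2 largest rises and falls past the test. From each list at most 4 genes past the test were named, with those listed at 0, CG14184, Mitf and CG17119 added after their values were seen. Alternatives were DESeq2 1.42.0, limma 3.58.1 on log2(RPKM + 1), other scalings and filters, a replicate term and leaving out each library.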

Additional observations from a re-analysis of the deposited data

How the results depend on the processing

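Depth limits the 14 members under a mean level of 1, and the replicates at 6 h APF were the most unlike (biological coefficient of variation 35.7%, against 10.6 to 21.3% elsewhere). With DESeq2 size factors, filterByExpr or a replicate term no called fold change of a member lost its call (80 of 80 each). DESeq2's test kept 79 of 80. Every gene with a count kept 75, and the 4 libraries of a comparison alone kept 73. Library size alone kept 47 and turned 1, unassigned reads in the library size kept 22 and turned 2, and limma kept 20 and turned 2, and the cause of the losses was not tested. These scalings also moved the median of all genes. With library size alone that median was -0.53, 0.50, -0.04, -0.42, -0.26 and -0.84 for 6 h over L3, 18 h over 6 h, 24 h over 18 h, 36 h over 24 h, 44 h over 36 h and 44 h over L3. With unassigned reads included it was -0.38, 0.74, -0.36, -0.88, 0.41 and -0.57.

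With library size alone 5 members passed at 6 h over L3, 0 at 24 h over 18 h, 6 at 36 h over 24 h and 11 at 44 h over L3. The medians of the leading genes were then 0.44 (6 h over L3), -0.76 (18 h over 6 h), 0.30 (36 h over 24 h), 0.62 (44 h over 36 h) and 0.55 (44 h over L3), and Vha100-1 at 6 h over L3 turned to -0.03. With unassigned reads in the library size 1, 3, 0 and 1 members passed in the first 4 comparisons and 8 at 44 h over L3. The medians were 0.59, -0.53, -0.28, -0.13, 1.27 and 0.80, and at 36 h over 24 h VhaM8.9 turned to -0.20 and VhaSFD to -0.13. With limma on log2(RPKM + 1), on the deposited scale that holds the same unassigned reads, 0, 3, 0, 1, 9 and 8 members passed and 11 over all timepoints. The 1 member at 36 h over 24 h fell, against 11 rises with edgeR. The medians were 0.54, -0.48, -0.26, -0.15, 1.16 and 0.78, and VhaM8.9 (-0.19) and VhaSFD (-0.15) were again below 0 at 36 h over 24 h. Directions at those points hold relative to the other genes alone.

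A 2-fold minimum left 9 members at 6 h over L3, 0 at 24 h over 18 h, 6 at 36 h over 24 h and 8 at 44 h over 36 h. In the 4 libraries of 24 and 18 h alone 0 passed. Leaving out each library in turn gave 12 to 16 members at 6 h over L3, 15 to 18 at 18 h over 6 h, 0 to 3 at 24 h over 18 h, 8 to 13 at 36 h over 24 h, 8 to 16 at 44 h over 36 h, 19 to 20 at 44 h over L3 and 19 to 21 over all timepoints. The medians were then 0.83 to 1.03, -1.37 to -1.14, -0.10 to 0.20, 0.66 to 0.83, 0.86 to 1.03 and 1.38 to 1.49. Replicate numbers did not pair the samples, with correlations of same-numbered deviations from -0.161 to 0.199. With the replicate block 16, 18, 2, 12, 16 and 20 members passed in the 6 comparisons. Without a length term VhaM9.7-b held 78.5% of the subunit e reads, against 71.7% of the level. The median transcript length, chosen after seeing the data, left 17 commonly expressed members. The planned search of promoters for an E-box was not run.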

Other observations

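Vha100-5 had 26 counts in replicate 2 of 36 h APF and none in the other 11 libraries. That library held 6 genes with at least 20 counts that had none in any other library, and 11 with at least 10. Of the other libraries, replicate 2 of 44 h held 1 gene with at least 10 such counts, and the rest held none. Vha36-3 had 19 counts in replicate 2 of 44 h and 2 in replicate 1.

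The deposited RPKM values order the Vha genes differently from levels scaled by annotated length. Vha100-1 stood 4th of the 17 commonly expressed genes by deposited RPKM and 17th by annotated length, and Vha36-1 stood 17th and 4th. Among rows 1000 to 9000 of the table, 0.463% of genes had an implied length within 0.5% of their own annotated length, and 55.9% matched that of the gene 391 or 392 rows away. Ratios of one gene between libraries are not touched by this. The exception is limma on log2(RPKM + 1), where the added 1 makes the fold change depend on the length.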
